A study of Mus musculus with 32 samples.

Results

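Oxidative phosphorylation is carried out in the inner mitochondrial membrane by 5 protein complexes. Complex I takes electrons from NADH and complex II, succinate dehydrogenase, takes them from succinate. Complex III passes them to the small carrier cytochrome c, complex IV hands them to oxygen, and complex V, the ATP synthase, uses the proton gradient that results. In macrophages, interleukin-4 and lipid handling are known to go with high respiration, and bacterial products with glycolysis and a rearranged electron transport chain. The genes described here are the nuclear genes of the subunits of these complexes, chosen by symbol: those that start with Ndufa, Ndufb, Ndufc, Ndufs, Ndufv, Uqcr, Cox4i, Cox5, Cox6, Cox7, Cox8 or Atp5, and Sdha, Sdhb, Sdhc, Sdhd, Cyc1 and Cycs. Assembly factors, whose symbols start with Ndufaf, were left out. Among the 24421 genes counted, 87 symbols matched, 85 reached 10 reads in total over all libraries, and 83 passed the filter on low counts and were tested: 37 of complex I, 4 of complex II, 9 of complex III, cytochrome c (Cycs), 15 of complex IV and 17 of complex V. Cox7b2 and Cox8c were dropped for too few reads. Cox8b, the heart and muscle isoform, with 0 to 0.238 CPM, and Ndufs5, a complex I subunit, with 0 to 0.436 CPM, stayed members and were not tested. Ndufs5 had 80 reads in total, where every other complex I gene but Ndufa4l2 had 13489 (Ndufa5) or more. How reads were assigned to genes is not given, so this count cannot be taken as the expression of Ndufs5. The mitochondrial genome encodes further subunits of 4 of the complexes, and these were not analysed here. Atp5s and Atp5sl share the prefix but are not subunits of the ATP synthase proper.

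The RNA came from macrophages that had been sorted out of epididymal fat. The C57BL/6J mice were on a standard diet (SD) or after 12 weeks of high-fat diet (HFD). A20, the product of Tnfaip3, is a ubiquitin-editing enzyme that limits NF-kB signalling, and the knockout mice (KO) lacked it in myeloid cells, while wild-type mice (WT) were the controls. CD11c+ cells were high for CD11c and low for CD206, and CD206+ cells the reverse, which gave 8 groups of 4 bulk RNA-seq libraries: CD11c+ WT SD, CD11c+ WT HFD, CD11c+ KO SD, CD11c+ KO HFD and the same 4 for CD206+. The promoter that drives the deletion is not given in the sources used here. Nor is it stated that each library is its own animal. The p-values therefore rest on the variation among the libraries sequenced, and that variation may be technical.

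Libraries held 17620000 to 23830000 gene counts. Tnfaip3 was lower in KO than in WT in both populations and on both diets, with log2 fold changes of -1.98 to -1.28, and Itgax and Mrc1, the genes of CD11c and CD206, did not overlap between the sorted populations. Itgax was 20.7 to 50.3 CPM in CD206+ WT HFD and at most 8.24 CPM in the other CD206+ groups. The third principal component of all genes tested, with 13.4% of the variance, set both WT SD groups (-43.7 to -31.1) apart from the other 6 (0.857 to 30.9). That separation enters all contrasts that use WT SD cells. The second component, with 23.7% of the variance, set both WT HFD groups (-55.1 to -27.4) apart from the other 6 (-13.1 to 37.4). It enters all contrasts that use WT HFD cells. The macrophage list of 7 genes summed to 15100 to 34000 CPM (counts per 1000000 gene counts, scaled between libraries). Markers of brown or beige fat summed to at most 1.81 CPM and those of striated muscle, with Myh4 at 0 in all 32 libraries, to at most 2.64 CPM. In bulk samples, fewer cells of a type and less RNA per cell cannot be told apart.

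The promoters of 4 members that the results turn on are shown, since members that moved together may be compared by what lies upstream of them. Uqcrfs1 encodes the Rieske iron-sulfur protein of complex III, Ndufa6 an accessory subunit of complex I, Sdhd the small membrane anchor of complex II, and Cycs cytochrome c. Each line is the 250 bases before the gene's start, 5′ to 3′ on the gene's strand, from RefSeq on GRCm38.p6. Capitals mark a match to the motif of the respiratory factor NRF1 (GCATGCGC), of the ETS family to which NRF2 belongs (CCGGAAG), or of YY1 (AAGATGGC), on either strand.
Uqcrfs1, chr13:30545317-30545566, minus strand: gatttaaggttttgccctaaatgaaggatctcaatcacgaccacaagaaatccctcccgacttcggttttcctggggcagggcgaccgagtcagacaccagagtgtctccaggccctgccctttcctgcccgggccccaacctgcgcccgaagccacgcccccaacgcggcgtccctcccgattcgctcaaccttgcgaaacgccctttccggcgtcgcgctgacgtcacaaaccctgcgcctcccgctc
Ndufa6, chr15:82354292-82354541, minus strand: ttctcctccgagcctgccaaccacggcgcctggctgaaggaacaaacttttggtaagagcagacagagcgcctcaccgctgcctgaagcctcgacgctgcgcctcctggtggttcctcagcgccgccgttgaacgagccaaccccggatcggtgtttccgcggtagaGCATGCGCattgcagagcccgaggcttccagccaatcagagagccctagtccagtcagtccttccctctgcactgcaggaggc
Sdhd, chr9:50603850-50604099, minus strand: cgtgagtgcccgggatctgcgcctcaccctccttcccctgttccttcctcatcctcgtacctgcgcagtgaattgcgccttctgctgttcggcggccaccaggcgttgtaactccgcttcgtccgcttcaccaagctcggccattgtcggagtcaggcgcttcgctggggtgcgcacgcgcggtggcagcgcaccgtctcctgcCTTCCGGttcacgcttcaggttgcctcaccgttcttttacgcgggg
Cycs, chr6:50566570-50566819, minus strand: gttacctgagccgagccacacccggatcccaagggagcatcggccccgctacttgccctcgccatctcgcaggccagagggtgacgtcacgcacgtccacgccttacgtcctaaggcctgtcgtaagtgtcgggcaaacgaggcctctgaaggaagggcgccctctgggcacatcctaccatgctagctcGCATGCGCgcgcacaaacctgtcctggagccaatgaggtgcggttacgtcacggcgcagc
Ndufa6 and Cycs carry the NRF1 letters, Sdhd the ETS letters, and Uqcrfs1 none of the 3. Over the promoter windows (250 bases before to 50 after the start, 300 bases) of the 68 members that matched the table, the NRF1 letters were in 11 of 74 (14.9%), against 2.71% of all 32851 windows. The ETS letters were in 21.6% against 8.86%, and the YY1 letters in 16.2% against 2.75%. The YY1 matches lay in 7 of 34 windows of complex I and 5 of 20 of complex V, and in none of the 3 of complex II, 5 of complex III or 11 of complex IV. The hypoxia element ACGTG, not capitalised above, was in 28.4% against 19.6%. A match describes the letters only, and each motif was searched on its own, on both strands. All windows means those of 27025 genes, tested here or not, so the shares are not matched for expression or base content.

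The mean level of the subunits followed 2 divisions, by population and, within CD11c+ cells, by diet and genotype. For each complex the log2(CPM + 1) values of its tested members were centred over the 32 libraries and averaged, so that 0 is the mean of all libraries. Over all 83 tested members the mean was 0.33 ± 0.11 (SD, n = 4) in CD11c+ WT SD, 0.33 ± 0.11 in CD11c+ KO SD and 0.32 ± 0.11 in CD11c+ KO HFD. CD11c+ WT HFD cells stood apart at -0.04 ± 0.05. Its 4 libraries, from -0.09 to 0.02, lay below all 12 libraries of the other CD11c+ groups, the lowest of which was at 0.17. The CD206+ groups lay lower, at -0.31 ± 0.16 in WT SD, -0.26 ± 0.03 in WT HFD, -0.23 ± 0.11 in KO SD and -0.15 ± 0.06 in KO HFD. As a share of all gene counts the members took 0.813% to 0.85% in CD11c+ WT HFD, 0.967% to 1.17% in the other CD11c+ groups, and 0.616% to 0.794% in CD206+ cells.

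**Figure D1:**
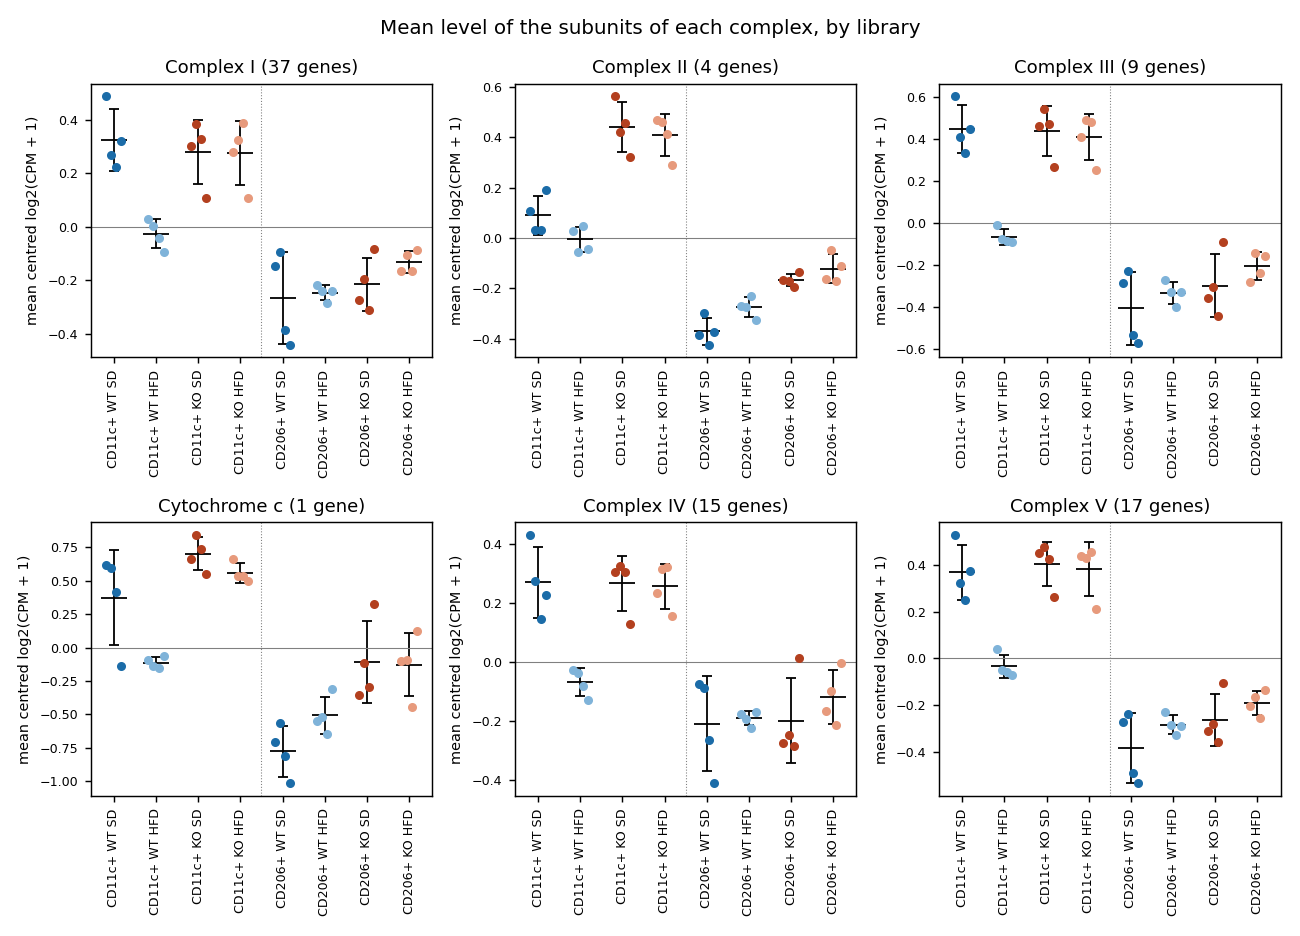
Each panel plots 1 complex: the y axis is the mean centred log2(CPM + 1) of its tested genes, the x axis the 8 groups, points are libraries and bars the mean ± SD of 4. In complexes I, III, IV and V the CD11c+ WT HFD libraries sit between the other CD11c+ groups and the CD206+ groups, while in complex II the CD11c+ WT SD group (0.09) is also low beside the KO groups (0.44 and 0.41).

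The complexes did not share 1 pattern. Complex III had the widest range of group means, from -0.40 ± 0.17 in CD206+ WT SD to 0.45 ± 0.12 in CD11c+ WT SD, among the 5 complexes. Complex I ran from -0.27 ± 0.17 to 0.33 ± 0.12 and complex V from -0.38 ± 0.15 in CD206+ WT SD to 0.40 ± 0.10 in CD11c+ KO SD. The mean of complex II went by genotype in CD11c+ cells, though its genes differed in the effect of diet, as given below. It was 0.09 ± 0.08 in WT SD and -0.01 ± 0.05 in WT HFD, against 0.44 ± 0.10 in KO SD and 0.41 ± 0.08 in KO HFD. The lowest of the 8 KO libraries, at 0.29, lay above the highest of the 8 WT libraries, at 0.19. In complexes III and V, by contrast, CD11c+ WT SD (0.45 and 0.37) lay within 1 SD of CD11c+ KO SD (0.44 and 0.40). Complex IV means depend on its low-level isoforms, which weigh as much as abundant subunits: by the log2 of the summed CPM the CD11c+ WT SD mean was 0.39 where the mean over genes gave 0.27 ± 0.12.

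Loss of A20 in CD11c+ macrophages on HFD went with higher levels of most subunits. Of 83 members 66 were called higher in KO (adjusted p under 0.05) and 3 lower, against 18.6% of all 13453 genes called higher and 19.4% lower. The median log2 fold change was 0.39, and -0.02 over all genes. In 60 members all 4 KO libraries lay above all 4 WT libraries, which held for 17.2% of all genes. By complex, 28 of 37 were higher in complex I, 4 of 4 in II, 8 of 9 in III, 10 of 15 in IV and 15 of 17 in V, and Cycs was higher too. The members share 1 control group here with the WT diet comparison, CD11c+ WT HFD.

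Uqcrfs1 had the largest rise. It read 93.8, 94.6, 89.9 and 94.3 CPM in the 4 CD11c+ WT HFD libraries and 166, 187, 167 and 143 CPM in the KO. The groups did not overlap. By edgeR's quasi-likelihood test the log2 fold change was 0.83 ± 0.09 (SE here and below; adjusted p = 1.63e-08), or 1.78-fold. Its partner in the electron path of complex III, Cyc1, the haem-bearing cytochrome c1, rose from 106 ± 5.55 to 158 ± 16.2 CPM (SD, n = 4; 0.58 ± 0.08, adjusted p = 9.72e-07). The core proteins Uqcrc1 and Uqcrc2, which hold the complex together, rose by less, 0.38 ± 0.08 and 0.35 ± 0.09. Cycs, the mobile carrier between complexes III and IV, rose from 129 ± 3.9 to 206 ± 10.5 CPM (0.68 ± 0.14, adjusted p = 0.000324), with no overlap.

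In complex IV the rise was led by Cox5a, a matrix-side subunit that binds thyroid hormone. It read 131, 139, 143 and 145 CPM in WT and 261, 233, 242 and 207 CPM in KO. The KO libraries all lay above the WT ones (log2 fold change 0.76 ± 0.10, adjusted p = 2.15e-07). Cox7b (0.64 ± 0.13), Cox8a (0.61 ± 0.12), Cox4i1, the ubiquitous isoform of subunit 4 (0.37 ± 0.09), and Cox7a2l (0.38 ± 0.10) rose as well. None of the low-level isoforms Cox4i2, Cox6a2, Cox6b2 and Cox7a1 was called. In complex V the catalytic head with its central stalk, the peripheral stalk, the membrane subunits and the c ring moved together. All 5, 4, 3 and 3 genes of these were higher, with medians of 0.46, 0.57, 0.50 and 0.34. Atp5b, the catalytic beta subunit, rose from 910 ± 28.3 to 1249 ± 84.1 CPM (0.46 ± 0.07, adjusted p = 1.82e-06). Of the 3 genes for the identical mature c subunit, Atp5g3 rose most (0.61 ± 0.08), ahead of Atp5g1 (0.34 ± 0.09) and Atp5g2 (0.29 ± 0.09).

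Complex I split by gene. Its core subunits, which carry the redox centres, were higher in 5 of 7, with Ndufv1, the NADH-binding flavoprotein, at 0.48 ± 0.09. Ndufs1, the largest core subunit, read 77.5, 68.8, 78.0 and 77.9 CPM in WT and 78.5, 68.2, 66.6 and 72.9 CPM in KO. Its groups overlapped, and the log2 fold change was -0.08 ± 0.07 (adjusted p = 0.394). Among accessory subunits 23 of 29 were higher, led by Ndufa1 (0.68 ± 0.14) and Ndufc2 (0.61 ± 0.11). Ndufa4 went the other way. It was named as a complex I subunit and was later found to belong to complex IV. Ndufa4 stays with complex I, by its symbol, in all counts and means here, among the 29 accessory subunits. It read 110, 104, 101 and 102 CPM in WT and 75.0, 81.9, 99.1 and 68.5 CPM in KO. The KO libraries all lay lower, though one came within 2 CPM (log2 fold change -0.36 ± 0.12, adjusted p = 0.0182), and in 6 of 8 fits with 1 library left out the call was lost, with adjusted p up to 0.0855. Its hypoxia-induced relative Ndufa4l2 fell from 2.16 ± 1.03 to 0.634 ± 0.423 CPM (-1.74 ± 0.48, adjusted p = 0.00462). The third member called lower, Atp5s, is named by the prefix only (-0.46 ± 0.18, adjusted p = 0.0481), and lost its call in 5 of 8 such fits.

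**Figure D2:**
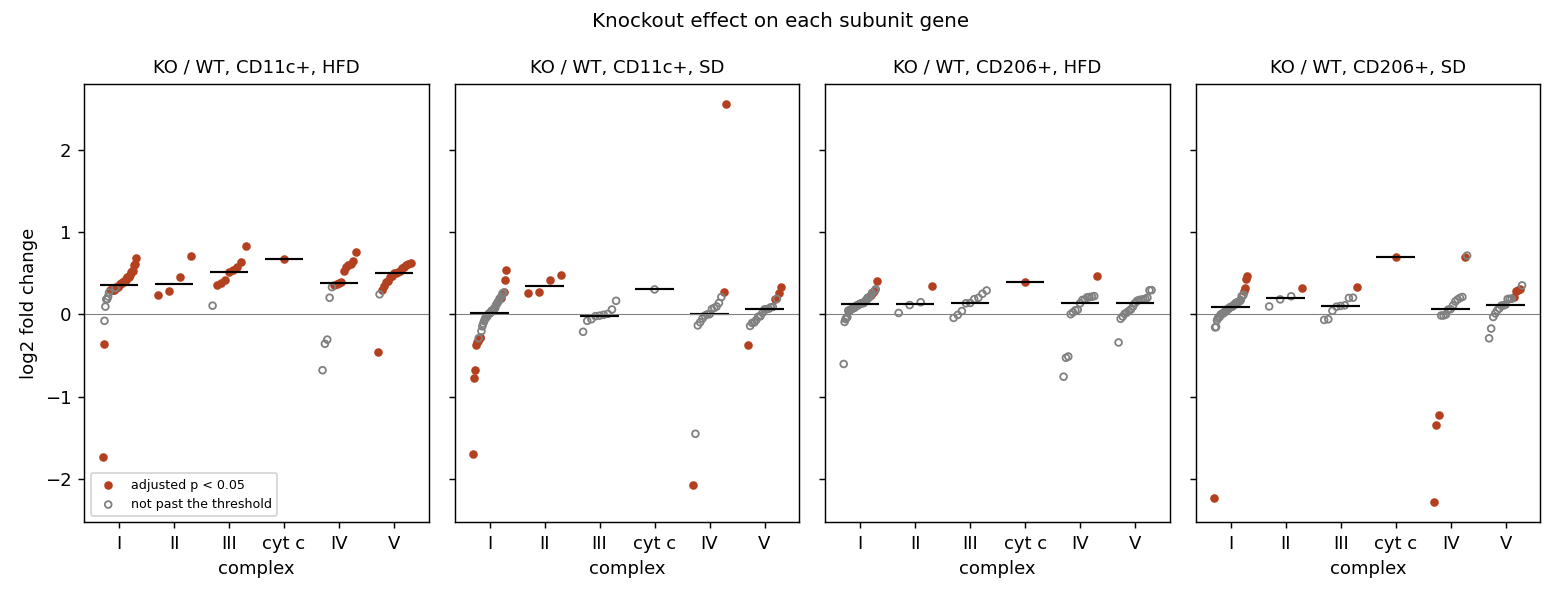
Each point is a member; the y axis is its log2 fold change of KO against WT and the x axis its complex, with a panel for each population and diet. Filled points passed an adjusted p of 0.05 and bars are medians of a complex. On HFD in CD11c+ cells nearly all points lie above 0 (76 of 83), and on SD only complex II has all its genes called higher.

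On SD the same comparison gave a mixed picture. Of 83 members 13 were called higher and 10 lower in CD11c+ KO cells, against 13.2% and 13.6% of all genes, and the median log2 fold change was 0.02. These shares are near the background. The counts rest on some libraries: those higher came to 8, 7 and 8 without KO SD replicates 2 and 3 or WT SD replicate 2, and those lower to 6 without KO SD replicate 4 or WT SD replicate 1. With only the groups of the contrast in the fit 6 were higher and 6 lower, and with median-of-ratios scaling 8 were higher. Complex II was higher in 4 of 4, complex III in none of 9 (edgeR; 0 also lower). Sdhc, a membrane anchor of succinate dehydrogenase, read 103, 100, 98.5 and 111 CPM in WT and 160, 141, 142 and 133 CPM in KO. The groups did not overlap (0.48 ± 0.07, adjusted p = 9.91e-06). Sdhb, the iron-sulfur subunit, rose from 198 ± 10.2 to 263 ± 13.7 CPM (0.41 ± 0.07), Sdha, the flavoprotein, from 289 ± 36.5 to 349 ± 30.3 CPM (0.27 ± 0.08), and Sdhd from 278 ± 15.1 to 331 ± 45.8 CPM (0.25 ± 0.09). Sdha missed the threshold without KO SD replicate 4 (adjusted p = 0.052) and with only the groups of the contrast in the fit (adjusted p = 0.0904). On HFD these 4 rose too, Sdhd by 0.71 ± 0.09, Sdhb by 0.46 ± 0.07, Sdha by 0.28 ± 0.08 and Sdhc by 0.23 ± 0.07.

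Of the 29 accessory subunits of complex I, Ndufa4 among them, 6 were lower in KO on SD and 2 higher, with a median of -0.01. Of the core subunits 1 of 7 was lower and 2 higher. Ndufc2 (0.54 ± 0.11) and the core subunit Ndufs3 (0.41 ± 0.08) were among those that rose. Ndufa6 read 129, 92.3, 95.8 and 99.5 CPM in WT and 60.6, 68.2, 61.6 and 52.1 CPM in KO. All 4 KO libraries lay below the WT ones (-0.78 ± 0.13, adjusted p = 2.44e-05). Ndufa4 read 145, 120, 132 and 113 CPM in WT and 73.5, 98.0, 77.8 and 68.6 CPM in KO, again with no overlap (-0.68 ± 0.12, adjusted p = 7.42e-05). Uqcrfs1, the leading gene on HFD, read 169.8 ± 6.9 CPM in WT and 177 ± 15.4 CPM in KO on SD, and the groups overlapped (0.06 ± 0.09, adjusted p = 0.68). Cycs, at 0.30 ± 0.14, did not pass either (adjusted p = 0.115).

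In WT CD11c+ cells most subunits were lower on HFD than on SD. Of 83 members 61 were lower on HFD and 2 higher, against 22.6% and 23.8% of all genes. The median log2 fold change was -0.41 (0.01 over all genes), and in 56 members all 4 HFD libraries lay below all 4 SD libraries, against 19.4% of all genes. Ndufa6 fell from 104 ± 16.6 to 40.4 ± 2.0 CPM, with HFD libraries at 42.1, 42.0, 38.1 and 39.4 CPM (-1.36 ± 0.13, adjusted p = 6.02e-10). That is a 2.57-fold lower level. Atp5e, the epsilon subunit of the central stalk, fell from 119 ± 16.4 to 60.1 ± 5.05 CPM (-0.98 ± 0.13). Ndufa1 fell by 0.96 ± 0.14 and Uqcrfs1 from 169.8 ± 6.9 to 93.1 ± 2.2 CPM (-0.87 ± 0.09, adjusted p = 3.53e-09).

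Complex II again stood out by gene in this comparison. Sdhc was 1 of the 2 members that rose (0.32 ± 0.07, adjusted p = 0.000653, no overlap), while Sdhd fell (-0.60 ± 0.09). Sdhb (-0.06 ± 0.07, adjusted p = 0.544) and Sdha (-0.05 ± 0.08, adjusted p = 0.68) did not pass. Ndufs1 also did not follow the others, at 0.15 ± 0.07 (adjusted p = 0.0845).

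In KO CD11c+ cells no member was called between the diets, in either direction, by edgeR or DESeq2, and none had an unadjusted p under 0.05. Over all genes 1 was called higher (0.00743%) and 0% lower. The median over members was -0.02. The difference of the genotype effect between diets was tested as an interaction: 43 members had a more positive KO effect on HFD than on SD and 2 a more negative one, against 13.9% and 15% of all genes. The median was 0.38. Ndufa6 (1.23 ± 0.18, adjusted p = 5.14e-06), Uqcrfs1 (0.77 ± 0.13) and Ndufs8, a core subunit with iron-sulfur clusters (0.67 ± 0.11), had the smallest p among those positive. Ndufs1 was negative (-0.28 ± 0.10, adjusted p = 0.0346), and lost its call in 8 of 16 fits with 1 library left out. The other negative member was Cox6a2. Of the 4 genes of complex II 1 passed, Sdhd (0.456 ± 0.125, adjusted p = 0.00609), while Sdhc was at -0.247 ± 0.104 (adjusted p = 0.0756).

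**Figure D3:**
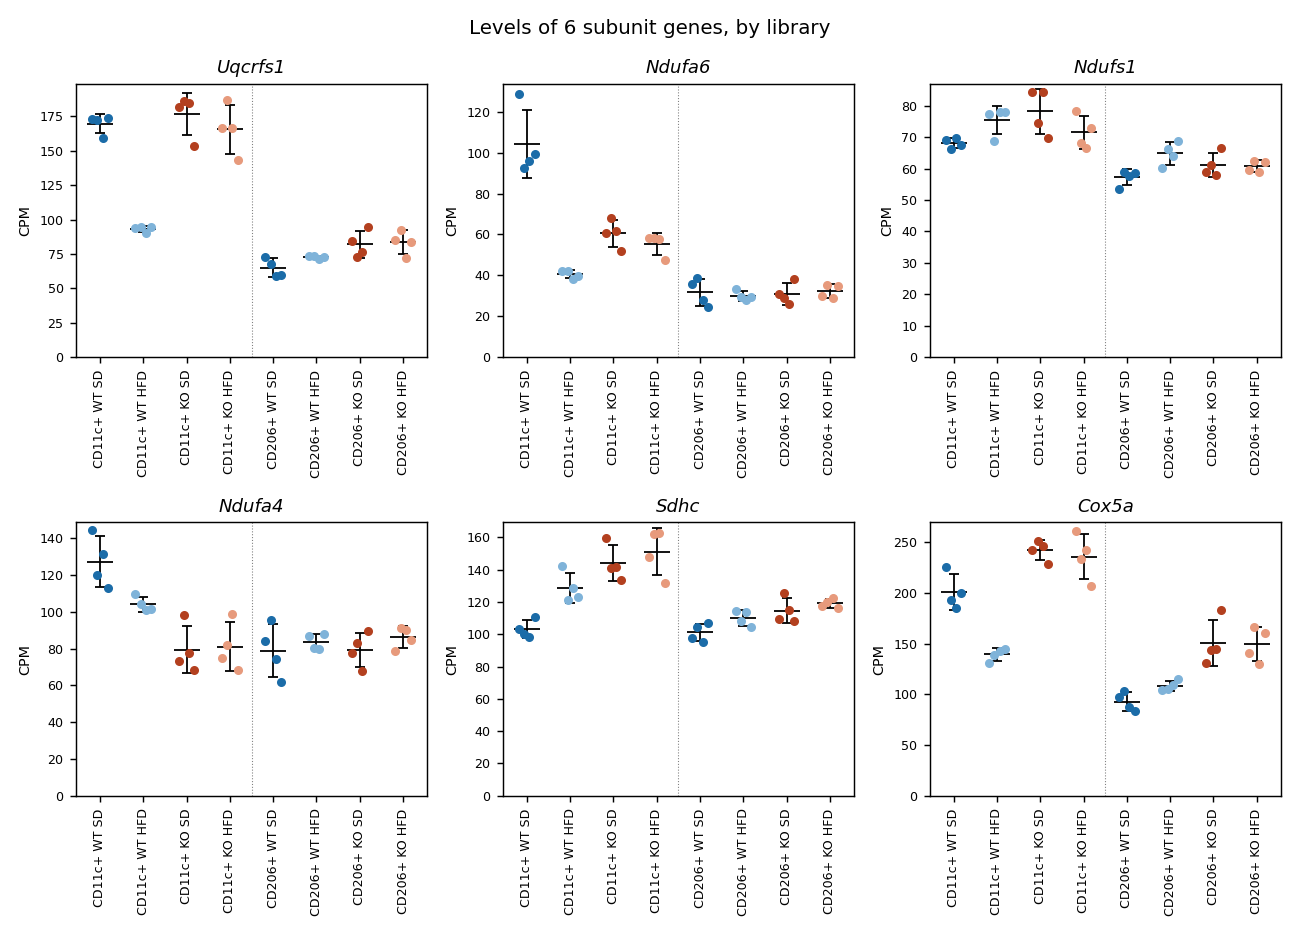
The y axes are CPM from 0 and the x axes the 8 groups, with points for libraries and bars for the mean ± SD of 4. Uqcrfs1 drops in CD11c+ WT HFD (93.1 CPM), Ndufa6 has its highest mean in CD11c+ WT SD (104 CPM), Ndufs1 stays between 57.2 and 78.2 CPM in all group means, Ndufa4 is lower in CD11c+ KO than in CD11c+ WT, and Cox5a is higher in KO than in WT in each population and diet.

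Other mitochondrial and translation genes moved beside these. In CD11c+ KO against WT on HFD, 13 of 42 assembly factors rose and none fell, 9 of 19 genes of the tricarboxylic acid cycle rose and 1 fell, and 36 of 77 genes of the mitochondrial ribosome rose and 1 fell, beside the 18.6% and 19.4% of all genes. Foxred1, an assembly factor of complex I, rose by 0.58 ± 0.09, Sdhaf1, which helps to assemble complex II, by 0.68 ± 0.12, and Mdh2, mitochondrial malate dehydrogenase, by 0.48 ± 0.07. The adenine nucleotide carrier Slc25a5 rose by 0.68 ± 0.09. It was 1 of 3 that rose among 7 genes of carriers and the ATP synthase inhibitor, whose median was 0.10, and none fell. Of 22 genes of mitochondrial import 4 rose and none fell, with a median of 0.15, near the share of all genes called higher. Among 15 regulators tested 1 rose and 2 fell: Ppargc1b, a coactivator of mitochondrial genes, rose by 1.03 ± 0.19, and Pparg fell (-1.31 ± 0.20). Ppargc1b also rose in CD11c+ KO on SD (0.98 ± 0.18), where the median over members was 0.02. Its genotype by diet interaction did not pass (0.05 ± 0.26). The part of Ppargc1b in the subunit levels was not tested. Nrf1 (0.02 ± 0.08, adjusted p = 0.885), Tfam (0.13 ± 0.11) and Esrra (-0.07 ± 0.11) did not pass. The genes of the cytosolic ribosome, which is not mitochondrial, moved alike on HFD: 63 of 77 rose in KO with a median of 0.43, and 75 of 77 fell between the diets in CD11c+ WT, with a median of -0.73 (22.6% of all genes fell). On SD, however, 43 of 77 of them fell in KO and none rose, with a median of -0.31 (13.6% of all genes fell). Their part in the subunit differences was not tested.

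Markers of other cell types moved as well in these comparisons. In CD11c+ cells on HFD all 7 stromal markers were lower in KO, with a sum of 70.2 to 120 CPM against 190 to 577 CPM in WT, and all 6 dendritic markers were higher, with 67.5 to 218 CPM against 25.7 to 91.9 CPM. All 7 stromal markers were higher in WT on HFD than on SD (50.2 to 161 CPM). The dendritic sum in WT on SD was 263 to 533 CPM, but only 2 of the 6 dendritic markers were called lower on HFD there. Cd209a, at 3.49 to 444 CPM over all libraries, reached the highest level of the 6, ahead of Ccr7 (at most 68.7 CPM). T cell markers were higher in KO on HFD in 5 of 5 (8.45 to 33.4 against 1.69 to 3.73 CPM) and endothelial markers lower in 4 of 6 (77.4 to 159 against 217 to 438 CPM). Of all genes 18.6% were higher and 19.4% lower in KO there. Fabp4, at 35.3 to 540 CPM over all libraries, counts in both the endothelial and the adipocyte lists, here and below, so their sums are not separate. The macrophage sum was 29600 to 34000 CPM in CD11c+ WT SD and 15900 to 22500 CPM in the other CD11c+ groups. Lyz2, at 8110 to 28700 CPM over all libraries, was its largest part. By gene, 5 of the 7 macrophage markers were higher and 2 lower on HFD than on SD in CD11c+ WT. Beside them 23.8% and 22.6% of all genes were called. In CD11c+ KO against WT 4 were higher and 1 lower on SD, and 2 were lower on HFD. The part of all these markers in the results was not tested.

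In CD206+ cells the knockout effect on the subunits was smaller in number. On HFD 7 members were higher and none lower, against 10.5% and 11.3% of all genes, with a median of 0.13. No member was lower at an unadjusted p under 0.05 or by DESeq2. The 7 were Cox5a (0.46 ± 0.09, adjusted p = 0.00053), Cycs, Ndufc2, Ndufs3, Sdhd, Ndufb5 and Ndufb9. The count was 3 without KO HFD replicate 2 or WT HFD replicate 3, and 4 without KO HFD replicate 4. Cycs lost its call in 6 and Ndufb5 in 5 of 8 fits with 1 library left out. With only the groups of the contrast in the fit 16 were higher and 0 lower. On SD 12 were higher and 4 lower, against 11.8% and 12.7%, with a median of 0.11. Cycs rose on SD from 81.7 ± 10.8 to 132 ± 30.3 CPM (0.69 ± 0.14, adjusted p = 0.000555), Cox5a from 92.9 ± 9.05 to 151 ± 22.8 CPM (0.70 ± 0.10, adjusted p = 2.21e-06). The 4 lower members on SD were all low-level isoforms: Cox4i2, Ndufa4l2, Cox7a1 and Cox6b2, the last lost in 7 of 8 fits with 1 library left out. On HFD none of these was called. Cox5a, Ndufc2 and Ndufs3 were called higher in KO in all 4 combinations of population and diet, which are 3 of 83 members (3.61%), against 3.29% of all genes tested. For Cox5a in CD11c+ cells on SD (0.27 ± 0.09, adjusted p = 0.0332) the call was lost in 6 of 8 fits with 1 library left out. In CD206+ cells diet changed little: 4 members rose on HFD in WT (14.2% of all genes called higher, 13.5% lower), which were Ndufa10, Sdhb, Cyc1 and Atp5b, at 0.23 to 0.29 (Cyc1 lost its call in 4 of 8 fits with 1 library left out), and in KO none was called (0% of all genes, in either direction), with 2 at an unadjusted p under 0.05 and none by DESeq2. No member was called lower in WT by edgeR or DESeq2, with 1 at an unadjusted p under 0.05, and the genotype by diet interaction called none (5.23% and 6.63% of all genes), 4 at an unadjusted p under 0.05, and 1 by DESeq2.

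Markers of other cell types moved in CD206+ cells too. In KO on HFD all 7 stromal markers were lower (194 to 266 against 421 to 1870 CPM in sum), and all 5 T cell markers (12.7 to 58.2 against 2.42 to 6.62 CPM), all 3 neutrophil markers (79 to 96.9 against 25.7 to 50.6 CPM) and 6 of 10 adipocyte markers were higher. The neutrophil sum was mostly Csf3r (6.87 to 108 CPM over all libraries), since S100a8 and S100a9 were at most 2.5 and 1.67 CPM. On SD all 5 T cell markers were higher in KO and 5 of 6 endothelial markers lower. Of 10 adipocyte markers 4 were lower and 1 higher. Of all genes 11.8% were higher and 12.7% lower on SD, and 10.5% and 11.3% on HFD. Their part in the results was not tested.

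Whether the knockout effect differed between populations was tested directly. On HFD 8 members had a more positive effect in CD11c+ than in CD206+ cells and none a more negative one, against 2.16% and 2.2% of all genes, with a median of 0.30. By DESeq2 none was more negative, and 1 had an unadjusted p under 0.05. Uqcrfs1 (0.63 ± 0.13, adjusted p = 0.00397), Atp5b (0.41 ± 0.09) and Cyc1 (0.44 ± 0.11) led. The count was 3 to 5 without any 1 of CD11c+ KO HFD replicates 1 and 2, CD11c+ WT HFD replicate 1, CD206+ KO HFD replicate 3 and CD206+ WT HFD replicates 1 and 4, and 15 with only the groups of the contrast in the fit. On SD 2 were more positive (Cox6a2, Cox7a1) and 2 more negative, against 4.1% and 2.48%. Ndufa4 (-0.69 ± 0.17, adjusted p = 0.0125) and Ndufa6 (-0.75 ± 0.18, adjusted p = 0.011) were the negative ones. Cox7a1 (1.56 ± 0.48, adjusted p = 0.0462) missed the threshold with the replicate number as a block (adjusted p = 0.0501), within genotype and diet (adjusted p = 0.0553) and in 11 of 16 fits with 1 library left out. Cox6a2 missed it in 7 of 16.

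CD11c+ cells had more of most subunit transcripts than CD206+ cells in WT on SD and in KO on both diets, and fewer members passed in WT on HFD. In WT on SD 73 members were higher and 4 lower, against 30.2% and 33.5% of all genes, with a median of 0.72. In KO on SD 74 were higher and 3 lower (25.6% and 26.1% of all genes; median 0.66), and in KO on HFD 71 and 1 (23.3% and 22.5%; median 0.54). In WT on HFD the median was lower, with 32 higher and none lower (11.7% and 8.7%; median 0.25). There 1 member had a lower level at an unadjusted p under 0.05 and 1, Ndufa4l2, was called by DESeq2 and by the block within genotype and diet. The count of 32 was 18, 21 and 20 without CD11c+ WT HFD replicate 1, CD206+ WT HFD replicate 2 and CD206+ WT HFD replicate 3, and 52 with only the groups of the contrast in the fit. The diet effect in WT differed between the populations in 54 members: 53 were more negative in CD11c+ cells and 1 more positive, against 16% and 16.4% of all genes, and the median was -0.45. Uqcrfs1 went from 64.9 ± 6.8 CPM in CD206+ WT SD to 169.8 ± 6.9 CPM in CD11c+ WT SD, a log2 fold change of 1.39 ± 0.09 (adjusted p = 2.96e-13). On HFD it went from 72.6 ± 1.0 to 93.1 ± 2.2 CPM (0.36 ± 0.09, adjusted p = 0.00484). Sdhc, by contrast, was level between the populations in WT on SD (103 ± 5.5 against 101 ± 5.5 CPM; 0.03 ± 0.07, adjusted p = 0.749), with overlapping libraries. The library share of reads outside genes was 9.82% to 11.1% in CD206+ WT SD and 5.16% to 7.78% in all CD11c+ groups. In WT on SD all 10 adipocyte, 7 stromal and 6 endothelial markers were lower in CD11c+ than in CD206+ cells and 4 of 6 dendritic markers higher. The adipocyte sum was 80.4 to 269 against 307 to 624 CPM and the stromal sum 50.2 to 161 against 221 to 711 CPM. Of the cytosolic ribosome genes 75 of 77 were higher in CD11c+ cells there, with a median of 0.89, and 7 of 77 in WT on HFD, with a median of 0.16. The part of these in the results was not tested.

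Cox6a2, Cox6b2, Cox4i2, Cox7a1 and Ndufa4l2, the low-level isoforms and relatives of the ubiquitous subunits, differed among themselves in where they were high. Cox6a2, the heart and muscle isoform of subunit 6a, read 0.0909, 0.241, 0.160 and 0.261 CPM in CD11c+ WT SD and 2.42, 1.66, 1.89 and 1.45 CPM in CD11c+ WT HFD. The HFD libraries all lay higher (log2 fold change 3.29 ± 0.41, adjusted p = 1.01e-07), and the other 6 groups averaged 1.12 to 2.75 CPM. In KO against WT on HFD it did not pass (-0.68 ± 0.33, adjusted p = 0.109). Its exons overlap those of Itgad on the other strand by 10.3%, and Itgad itself averaged 0.496 CPM in CD11c+ WT SD and 4.55 CPM in CD11c+ WT HFD. In CD11c+ KO cells Itgad averaged 1.1 CPM on SD and 2.58 CPM on HFD. It was 0 in all CD206+ WT SD libraries and averaged 0.365 to 0.678 CPM in the other CD206+ groups. The part of Itgad in the Cox6a2 counts was not tested. Reads of these 2 genes cannot be told apart where they overlap unless strand was used, which is not stated. Cox6b2, the testis isoform of subunit 6b, was highest in CD11c+ WT SD, at 2.62 ± 0.75 CPM, and fell to 0.530 ± 0.206 CPM on HFD (-2.30 ± 0.44, adjusted p = 6.95e-05). Cox4i2, an isoform known from lung and low oxygen, and Ndufa4l2 were highest in CD206+ WT SD, at 1.40 ± 0.20 and 9.17 ± 2.19 CPM, and were 0.285 ± 0.138 and 1.94 ± 0.46 CPM in CD206+ KO SD (-2.28 ± 0.54 and -2.23 ± 0.43). The stromal sum in those groups was 221 to 711 and 216 to 312 CPM, and the endothelial sum 346 to 748 and 158 to 192 CPM. Their part was not tested.

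**Figure D4:**
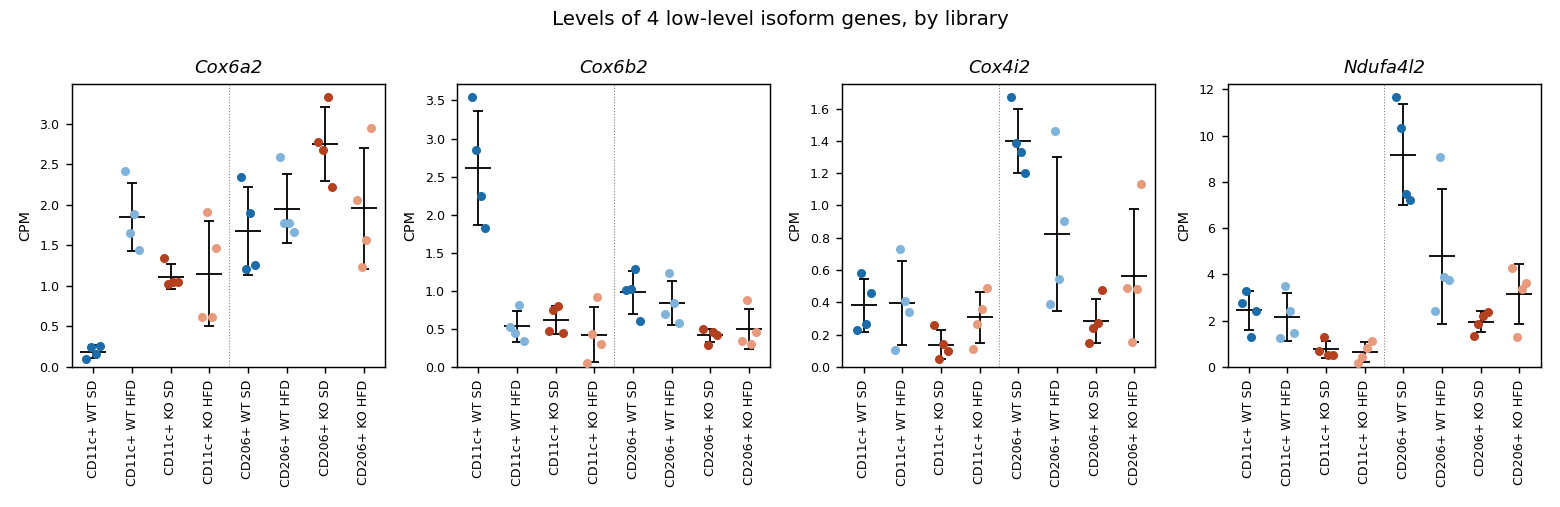
The y axes are CPM from 0 and the x axes the 8 groups, with points for libraries and bars for the mean ± SD of 4. Cox6a2 is low in CD11c+ WT SD (0.188 CPM) and above 0.6 CPM in every other library, Cox6b2 is high there (2.62 CPM), and Cox4i2 and Ndufa4l2 are highest in CD206+ WT SD.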

How the data were processed

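Bulk RNA-seq of 32 libraries (8 groups of 4, from the sample titles) was used. The authors deposited, for each library, whole-number read counts for 24421 genes and 5 entries that name no gene (reads outside genes, 5.16% to 11.1% of reads, reads fitting more than 1 gene, 0.992% to 1.48%, and others); these entered neither the library sizes nor any test. Per the submitters' processing notes the genome was mm10 (GRCm38), and SAMtools 0.1.18, TopHat2 2.1.0, Trimmomatic 0.35 and FastQC 0.11.4 were used, with no roles stated. How reads were assigned to genes, with which annotation, strand setting and rule for multiple hits, is not given in the sources used here.

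Counts were fitted in R 4.3.3 with edgeR 4.0.16 (filterByExpr with a minimum count of 10, leaving 13453 genes; TMM; glmQLFit and glmQLFTest) over all 32 libraries with a mean per group. The 12 contrasts of 2 groups and 5 interactions were adjusted by Benjamini-Hochberg over all genes tested. Levels are TMM-scaled CPM, not per length, so genes are not ranked against each other by level. Complex means used a pseudocount of 1. Coordinates are of GENCODE M21 genes and RefSeq promoters on GRCm38; 85 of 87 symbols matched the gene annotation. The fit was tested on simulated data. Chi-square per degree of freedom between replicates was 10.9 to 68, so none agreed within sampling noise.

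Genes were named by fixed representatives, the 2 largest called changes per complex, direction and contrast, up to 4 called against the majority, the 3 smallest p per direction in interactions, and up to 2 list genes by p; Ndufs3, Ndufc2, Ndufb5, Ndufb9, Tfam, Nrf1, Esrra and some members shown as examples were chosen after their values were seen. The members and lists were chosen with earlier results of these data known. Same-numbered CD11c+ and CD206+ libraries deviated together in WT HFD (correlations 0.228 to 0.468), WT SD (0.143 to 0.285) and KO SD (0.143 to 0.323), and not in every pair in KO HFD (-0.049 to 0.333); between genotypes or diets no set of pairs was over 0.1 throughout. Alternatives were median-of-ratios scaling, no low-count filter, a replicate block, only the contrast's groups, DESeq2 1.42.0 and each library left out.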

Additional observations from a re-analysis of the deposited data

Results flagged for a closer look

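In 11 of 168 groups of 4 checked (6 complex means and 15 genes), 1 library lay far from the other 3; chance flags about 1 in 20 groups. Of the libraries of KO SD in CD11c+ cells, replicate 4 was low for complex IV (0.13 centred log2), Uqcrfs1 (153.7 CPM) and Sdhd (262.6 CPM), and in CD206+ cells replicate 4 was high for complex IV (0.014). CD11c+ KO HFD replicate 4 was low for complex V (0.21) and Ndufa6 (47.4 CPM). The other libraries were CD11c+ WT SD replicate 3 for Uqcrfs1 (159.5 CPM), CD11c+ WT HFD replicate 2 for Ndufs1 (68.8 CPM) and replicate 4 for Cox4i1 (253.1 CPM), CD11c+ KO SD replicate 1 for Cox6a2 (1.35 CPM) and CD206+ WT HFD replicate 1 for Cox6a2 (2.60 CPM). Without CD11c+ KO HFD replicate 4 the members higher in KO on HFD came to 69, against 66 with it.

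Effects differed between groups, by an interaction test, in the following genes. The genotype effect differed between the diets in CD11c+ cells for Ndufa6 (1.23), Ndufs8 (0.67), Uqcrfs1 (0.77), Cox6a2 (-3.24) and Ndufs1 (-0.28). It differed between the populations on HFD for Uqcrfs1 (0.63), Atp5b (0.41) and Cyc1 (0.44), and on SD for Cox6a2 (1.84), Cox7a1 (1.56), Ndufa6 (-0.75) and Ndufa4 (-0.69). The diet effect in WT differed between the populations for Cox6a2 (3.07), Uqcrfs1 (-1.03), Ndufa6 (-1.28) and Ndufs8 (-0.67).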

How the results depend on the processing

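Counts of 83 members higher or lower were recomputed under each alternative. With median-of-ratios scaling 8 were higher in KO on SD in CD11c+ cells (13 in the main result), 1 and 2 were lower in CD11c+ against CD206+ cells in WT and KO on HFD, and 1 was negative for genotype by diet in CD11c+ cells. With no filter 3 were higher in CD206+ KO on HFD, 1 was negative for genotype by diet and 1 positive for genotype by population on SD. With only the groups of a contrast, KO on SD in CD11c+ cells gave 6 higher and 6 lower, CD206+ KO on HFD 16 higher, CD11c+ against CD206+ cells in WT on HFD 52 higher, genotype by diet in CD11c+ cells 1 negative, genotype by population 15 positive on HFD and 1 on SD. With the replicate block 2 were lower in CD11c+ against CD206+ cells in KO on HFD, 1 was positive for genotype by diet in CD206+ cells and 1 for genotype by population on SD; with the block within genotype and diet 1 and 2 were lower in CD11c+ against CD206+ cells in WT and KO on HFD. The block moved no other count past 1.5 times, and by replicate number only the populations were paired. DESeq2 gave 1 and 3 lower in those 2 comparisons, 1 positive for genotype by diet in CD206+ cells and 4 negative for genotype by population on SD. The cause was not tested.

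With each library left out in turn, KO on HFD in CD11c+ cells gave 58 to 69 higher and 1 to 3 lower, and on SD 7 to 13 higher and 6 to 11 lower. CD206+ KO on HFD gave 3 to 9 higher. Lower counts ran from 0 to 1 for diet in CD206+ WT, 0 to 1 for CD11c+ against CD206+ cells in WT on HFD (18 to 28 higher) and 1 to 2 in KO on HFD. Genotype by diet gave 1 to 3 negative in CD11c+ cells and 0 to 1 positive in CD206+ cells. Genotype by population gave 3 to 11 positive on HFD, and 0 to 2 positive and 2 to 4 negative on SD. The diet effect in CD11c+ WT gave 50 to 63 lower, and Ndufa4 and Atp5g2 lost that call in 6 and 4 of 8 fits. Among the named genes only Sdha between the diets in CD11c+ WT changed sign (-0.12 to 0.053, the latter without CD11c+ WT SD replicate 4), and it passed in neither fit. With 17620000 to 23830000 gene counts and 4 libraries a group, a member not called may still differ between groups.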

Other observations

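AA467197, the mouse form of NMES1, is a relative of Ndufa4 that is known to take its place in complex IV in inflamed cells. It is no member by symbol and was looked up after Ndufa4 had been seen to be lower in KO. It averaged 57.3 ± 3.87 CPM in KO SD and 34.9 ± 4.96 CPM in KO HFD among CD11c+ libraries (SD, n = 4 each), against 4.86 ± 4.1 and 0.618 ± 0.325 CPM in WT. The log2 fold change of KO against WT was 3.54 ± 0.55 on SD and 5.79 ± 0.68 on HFD (edgeR, adjusted p = 9.87e-06 and 6.03e-08), with no overlap of libraries. In CD206+ cells it was 2.89 ± 0.68 on SD and 2.84 ± 0.70 on HFD, at levels of 5.05 ± 5.09 and 4.00 ± 3.79 CPM in KO, while Ndufa4 did not pass in CD206+ cells on either diet.

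Across 75 ubiquitous subunit genes with an annotated length, Spearman's rho between the merged exon length and the log2 fold change was -0.144 for KO against WT on HFD and 0.331 on SD in CD11c+ cells, and 0.241 for the diets in CD11c+ WT. Over all contrasts and interactions rho ran from -0.444 (genotype by diet in CD206+ cells) to 0.447 (the diets in CD206+ WT). For genotype by diet in CD11c+ cells it was -0.29. These are across genes, which share libraries and are not replicates.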
